A study of Mus musculus with 3 samples.

Results

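The genes described here are those of the spliceosome and its regulators, chosen by name: every gene with a symbol beginning Prpf, Snrp, Sf3a, Sf3b, Srsf, Hnrnp, U2af or Lsm and measured by an oligo that the platform annotation assigns to a single symbol. There were 66 such genes among 14746 named genes tested, represented by 73 of 21819 library oligos. They fall into 7 families, with 10 Prpf, 13 Snrp, 7 Sf3, 9 Srsf, 16 Hnrnp, 2 U2af and 9 Lsm genes, and all 66 had a value on all 3 arrays. RefSeq lists 82 protein-coding mouse genes whose symbols fit the same pattern, and 17 of these were not among the members, including Sf3b2, Sf3b4, Srsf7, Hnrnpf and Prpf39. One further oligo, shared by Lsm5 and a second symbol, was left out. A pseudogene, Snrp1c-ps2, meets the naming rule and is kept as a member.

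Kidney at 13.5 dpc (days after mating) was compared with metanephric mesenchyme at 10.5 dpc, the embryonic tissue from which nephrons arise, in the mouse. Amplified RNA of both tissues was put on each of 3 2-colour oligonucleotide arrays. The tissue was normal, microdissected from CD1 embryos of both sexes and pooled over sex. Each array gave 1 log2 ratio per oligo, and the arrays form a single group. Which RNA is the numerator of the deposited ratio and which dye each RNA carried are not given in the sources used here. A gene is therefore called positive or negative by the sign of its deposited ratio, and neither sign is read as higher in kidney or in mesenchyme. For orientation, Cdh16, the cadherin of kidney tubules, stood at a mean of 3.31 ± 0.48 and Hbb-bh1, an embryonic globin, at -3.95 ± 0.32 (log2, SD, n = 3 arrays). Other globin genes lay much nearer 0, with Hba-x at -0.21 ± 0.15, Hba-a1 at -0.084 ± 0.13 and Hbb-y at -0.062 ± 0.26.

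The spliceosome removes introns from pre-mRNA. Its building blocks are the U1, U2, U4, U5 and U6 snRNPs, each a small nuclear RNA with proteins: a ring of Sm proteins on U1, U2, U4 and U5, a ring of LSm proteins on U6, and proteins particular to each particle. U2af and the SF3a and SF3b complexes help U2 to find the 3' end of the intron, the Prpf proteins of the U4/U6.U5 tri-snRNP bring in and activate the catalytic core, and SR proteins (Srsf) and hnRNP proteins bind the transcript and bias which exons are kept.

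Array 3 stood apart from the others over all 19635 features tested. The correlation across features was 0.46 between arrays 1 and 2, 0.17 between arrays 1 and 3 and 0.16 between arrays 2 and 3. Across the 66 splicing genes the same correlations were 0.78, 0.67 and 0.50. These describe genes that share the same 3 hybridisations and are no replicates of one another. Ratios do not show levels, so whether a tissue held its defining markers could not be checked. Stromal markers had a mean of 1.00 ± 0.11 over 7 genes, with 7 positive. Nephron progenitor markers had 0.36 ± 0.14 over 11 (7 positive, 4 negative) and tubule and podocyte markers 0.68 ± 0.20 over 11 (9 positive, 2 negative). Of these markers, Osr1 at -0.57 ± 0.067 and Cubn at -1.49 ± 0.47 were negative on all 3 arrays. Red-cell markers had a mean of -1.34 ± 0.22, with 9 of 9 negative and gene means from -3.95 to -0.0059. Somite and muscle markers had a mean of -0.85 ± 0.23 (9 of 9 negative) and gut and liver markers -0.66 ± 0.14 (8 of 10 negative). In bulk tissue RNA, fewer cells of a type and less RNA per cell cannot be told apart. The part of these cell types in the values below was not tested.

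The median of the splicing genes was -0.016 on the log2 scale, against 0.0020 over all features, and 31 of the 66 were positive. Their mean was -0.12 ± 0.070, against -0.0037 over all features, with array means of -0.11, -0.060 and -0.20. Within the set, a minority of genes lay well away from 0 on both sides. Prpf19, Prpf8, Prpf4, Sf3a3 and Sf3a2 were among those on the negative side, and Snrpd1, Snrpb2 and Prpf18 among those on the positive side, while the means of the Srsf and U2af genes lay between -0.28 and 0.26.

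No splicing gene passed limma's test with Benjamini-Hochberg adjustment over all features, which called 0.00509% of them (1 gene, which is not a member). That gene had the lowest deposited ratio, a floor of 0.01 or -6.64 on the log2 scale, on all 3 arrays, so its SD was 0. The adjusted p of the members ran from 0.112 to 0.997. At an unadjusted p under 0.05 there were 18 of the 66, or 27.3%, where 16.8% of all features and 18.3% of named genes met it. Of the 18, 11 lay on the negative side, 16.7% of members against 7.83% of all features, and 7 on the positive side, 10.6% against 8.99%. Without replicate 1 the count was 6 of 66 (9.09%, against 8.53% of all features), without replicate 2 it was 9 (13.6% against 10.5%), and without replicate 3 it was 18 (27.3% against 19.9%). The same sign on all 3 arrays was found for 42 members, or 63.6%, against 41.3% of all features. The median size of the mean ratio was alike, 0.26 in members and 0.25 over all features. The median SD over arrays was smaller in members, 0.23 against 0.32. A mean of at least 1 in size was reached by 2 members, where 5.33% of all features reached it; both were negative (2.98% of all features) and 0 were positive (2.35%). The 95% interval of the mean stayed inside 1 on either side of 0 for 49 of the 66 members. That count was not made over all features, whose median limma standard error was larger, 0.19 against 0.17 in members. Separate dissections for the 3 arrays are not stated in the sources used here, so these p-values reflect array-to-array spread that may be technical.

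**Figure D1:**
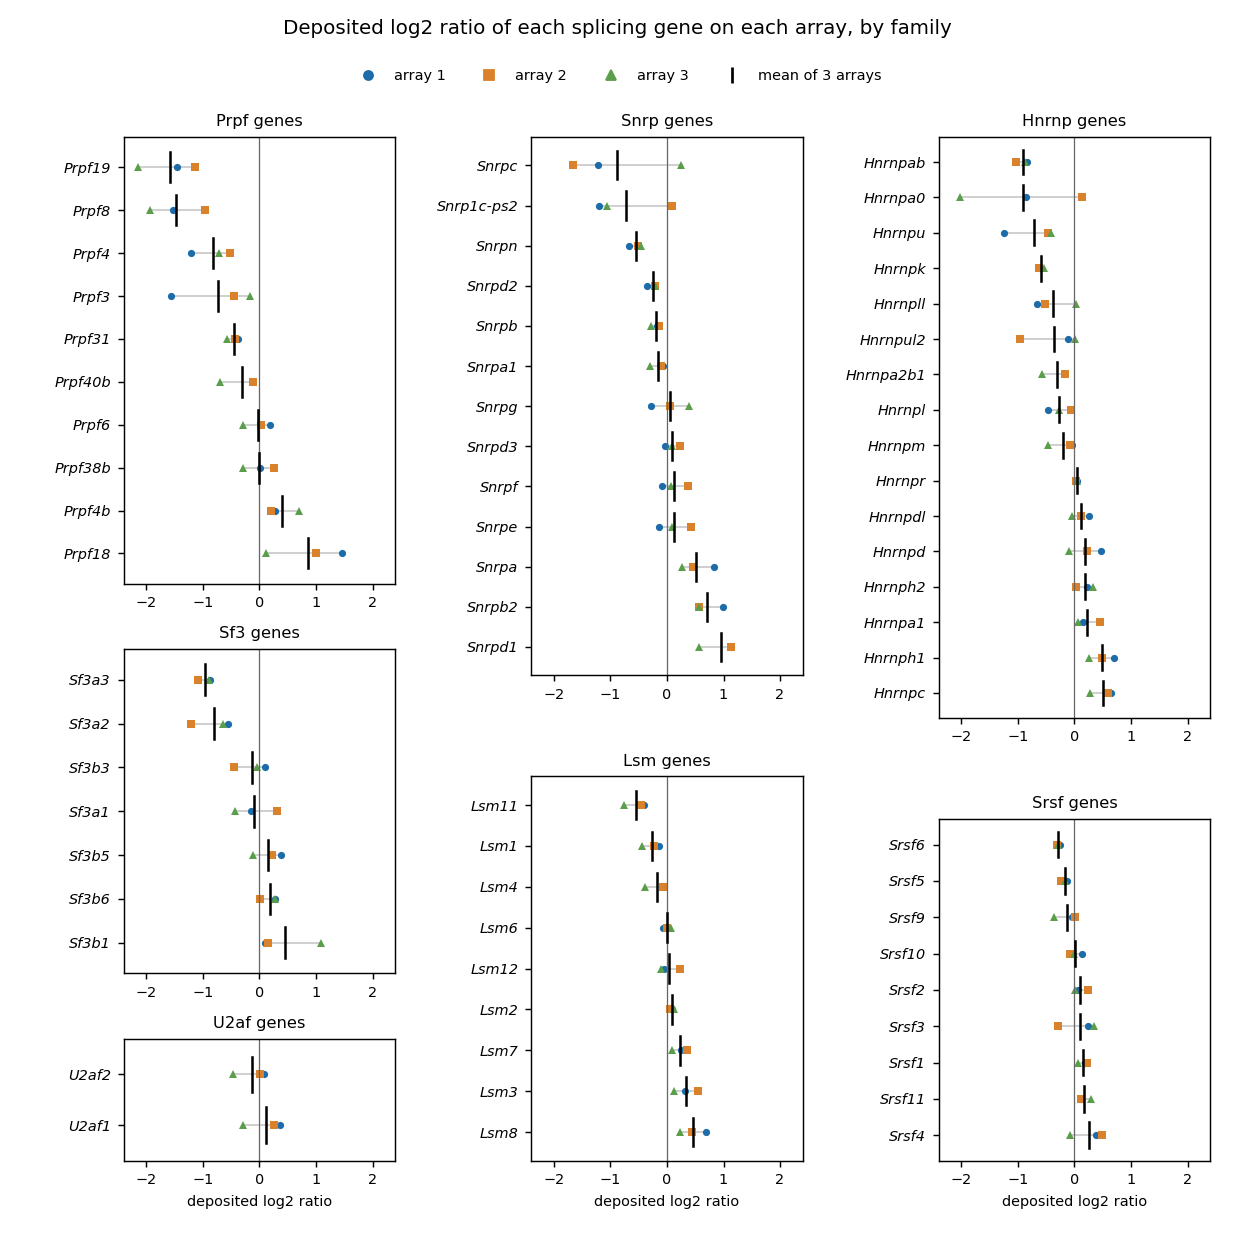
Deposited log2 ratio (horizontal axis) of each of the 66 splicing genes (rows), in 7 panels by family, with a circle, square and triangle for arrays 1, 2 and 3 and a black bar for their mean. Prpf19 and Prpf8 lie furthest to the negative side, at means of -1.58 and -1.47, and Snrpd1 furthest to the positive side at 0.95, while the Srsf means lie between -0.28 and 0.26.

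The stretches just upstream of 4 of these genes are shown because they belong to the genes that stood furthest from 0 relative to their error: on each side, those with the smallest p that had a single promoter in the RefSeq table (GRCm38.p6) and could be printed. Prpf19 and Snrpd1, which had the smallest p on the negative and the positive side, did not meet these conditions and are not shown. Each is the 250 bases before the annotated start, 5' to 3' on the gene's strand, at chr4:124714611-124714860 (plus strand) for Sf3a3, chr11:75486527-75486776 (plus) for Prpf8, chr2:143062819-143063068 (plus) for Snrpb2 and chr14:52104022-52104271 (minus) for Hnrnpc. Capitals mark matches, on either strand, to the ETS motif CCGGAAG, the CCAAT box CCAAT, the E-box CACGTG, the TATA box TATAAA or the GC box GGGCGG. Sf3a3 and Prpf8 stood on the negative side, and Snrpb2 and Hnrnpc on the positive side.
Sf3a3: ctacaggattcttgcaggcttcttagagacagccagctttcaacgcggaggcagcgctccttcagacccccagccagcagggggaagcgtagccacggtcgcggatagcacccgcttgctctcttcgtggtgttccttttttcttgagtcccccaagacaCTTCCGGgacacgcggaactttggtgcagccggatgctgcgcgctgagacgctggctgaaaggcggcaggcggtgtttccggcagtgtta
Prpf8: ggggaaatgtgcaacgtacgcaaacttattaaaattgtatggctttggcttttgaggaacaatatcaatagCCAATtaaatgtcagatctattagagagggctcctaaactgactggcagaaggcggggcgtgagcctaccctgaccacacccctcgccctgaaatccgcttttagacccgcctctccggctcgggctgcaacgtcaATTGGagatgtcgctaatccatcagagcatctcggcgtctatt
Snrpb2: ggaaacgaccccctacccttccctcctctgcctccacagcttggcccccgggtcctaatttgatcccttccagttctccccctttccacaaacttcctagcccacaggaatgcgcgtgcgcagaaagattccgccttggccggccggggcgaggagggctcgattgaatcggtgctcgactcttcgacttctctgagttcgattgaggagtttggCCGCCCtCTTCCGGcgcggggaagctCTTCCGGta
Hnrnpc: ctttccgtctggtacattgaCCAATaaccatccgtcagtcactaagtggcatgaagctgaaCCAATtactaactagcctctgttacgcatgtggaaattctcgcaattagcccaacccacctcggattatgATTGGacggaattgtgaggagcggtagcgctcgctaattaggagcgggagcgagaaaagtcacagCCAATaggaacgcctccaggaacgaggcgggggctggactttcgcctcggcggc
Sf3a3 held 1 ETS match and Prpf8 2 CCAAT boxes. Snrpb2 held 2 ETS matches and a GC box, and Hnrnpc 4 CCAAT boxes. No marked match overlapped another kind of motif in these 4 stretches. Over the 74 promoters listed for 55 of the 66 genes, the ETS motif was present in 17 (23%, against 6.91% of all 32851 promoters of the same length) and the GC box in 46 (62.2% against 32.7%). The CCAAT box was present in 41.9% against 33.8%, the TATA box in 8.11% against 12.4% and the E-box in 6.76% against 6.02%. Splicing gene promoters were also richer in G and C, with a median of 60% against 52.4%. Among promoters of the members at an unadjusted p under 0.05, the ETS motif stood in 3 of 15 on the negative side and 1 of 10 on the positive side, and the GC box in 4 of 15 and 7 of 10. These are matches of letters only.

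The Prpf genes stood furthest from 0 as a family. Their mean was -0.41 ± 0.19, with array means of -0.43, -0.21 and -0.60, and 8 of 10 were negative. At an unadjusted p under 0.05 there were 4 negative members and 1 positive among the 10, where 7.83% of all features were negative and 8.99% positive. Prpf19, the ubiquitin ligase that gives the Prp19 complex its name and acts as the spliceosome is activated, had -1.46, -1.15 and -2.15 on arrays 1, 2 and 3. Its mean was -1.58 ± 0.51, a 3.00-fold difference (95% interval -2.24 to -0.93, limma adjusted p = 0.112). Prpf8, the large U5 protein that cradles the catalytic RNA core, had -1.52, -0.97 and -1.93, with a mean of -1.47 ± 0.49, a 2.78-fold difference (limma adjusted p = 0.117). All 3 arrays lay on the same side for both genes, and array 3 was the furthest from 0 for each. They were the only members with a mean of at least 1 in size.

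Prpf4, Prpf31 and Prpf3, the Prpf genes of the U4/U6 particle, lay on the same side with means nearer 0. Prpf4, a WD-repeat protein of U4/U6, had -1.20, -0.51 and -0.72 (mean -0.81 ± 0.35, limma adjusted p = 0.185). Prpf31, which clamps U4 RNA and joins U4/U6 to U5, had -0.37, -0.42 and -0.56 (mean -0.45 ± 0.10, limma adjusted p = 0.255). Prpf3, the partner of Prpf4, was negative on all 3 arrays, but array 1 at -1.57 stood far from -0.44 and -0.17 on the others, and its mean of -0.73 ± 0.74 had a 95% interval of -1.59 to 0.13. Prpf6, the scaffold between U5 and U4/U6, was spread around 0 at 0.19, 0.034 and -0.29. The 5 tri-snRNP Prpf genes had array means of -0.89, -0.46 and -0.74. PRPF3, PRPF4, PRPF6, PRPF8 and PRPF31 are genes in which human mutations cause retinitis pigmentosa.

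Prpf18, which acts at the second catalytic step, was the positive exception, with 1.46, 1.01 and 0.12 and a mean of 0.86 ± 0.69 (95% interval 0.051 to 1.67, limma adjusted p = 0.279). Array 3 lay near 0 for it. Prpf4b, a kinase of the spliceosome, was positive on all 3 arrays at 0.28, 0.20 and 0.70, with an interval that crossed 0. Prpf40b, a relative of a yeast U1 protein, stood at -0.31 ± 0.33 and Prpf38b at -0.011 ± 0.27.

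**Figure D2:**
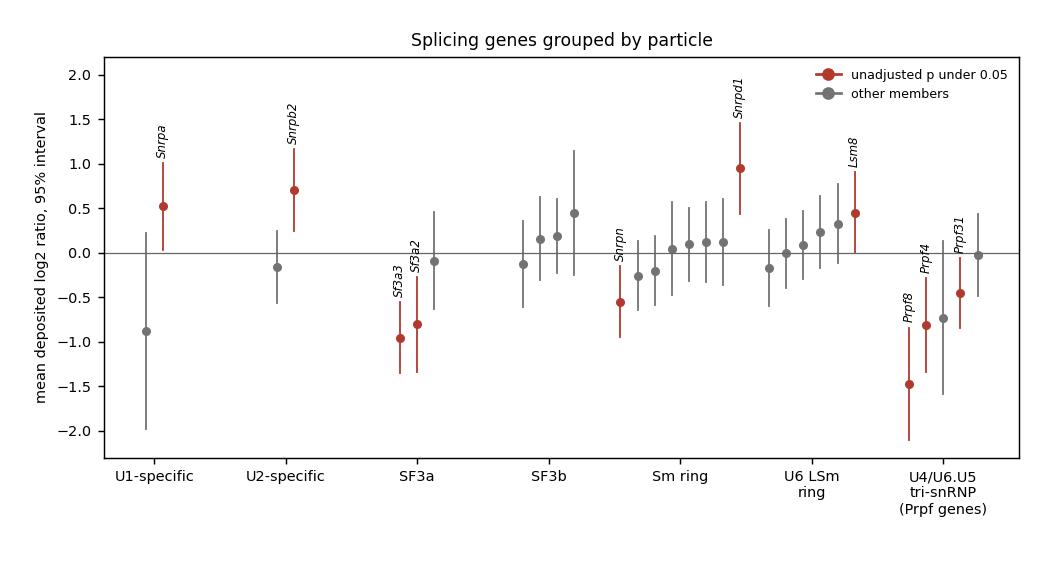
Mean deposited log2 ratio over the 3 arrays (vertical axis) with its 95% interval from limma, for the members that belong to 7 snRNP particles or rings (horizontal axis); red marks an unadjusted p under 0.05. All 3 SF3a means and all 5 tri-snRNP Prpf means lie below 0, while most Sm and LSm ring genes have intervals that cross 0.

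The Sf3 genes encode the U2 complexes SF3a and SF3b, and the measured subunits of these differed in position. Sf3a3 had -0.88, -1.08 and -0.89, a mean of -0.95 ± 0.11 or a 1.93-fold difference (95% interval -1.35 to -0.55, limma adjusted p = 0.113). Sf3a2, like Sf3a3 a zinc-finger protein, had -0.56, -1.21 and -0.64, with a mean of -0.80 ± 0.36 (limma adjusted p = 0.187). Both were negative on all arrays. The third SF3a subunit, Sf3a1, had -0.15, 0.31 and -0.42, and its interval of -0.63 to 0.46 crossed 0.

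None of the 4 measured SF3b subunits had an unadjusted p under 0.05, which 16.8% of all features met. Sf3b1, which holds the branch point and is often mutated in human myelodysplasia, had 0.10, 0.16 and 1.09, so that its mean of 0.45 ± 0.56 rested on array 3. Sf3b6, the branch-point protein p14, stood at 0.19 ± 0.15, Sf3b5 at 0.16 ± 0.25 and Sf3b3 at -0.13 ± 0.29. The mean of the SF3a genes was below that of the SF3b genes on each array, by -0.74, -0.65 and -0.96 (mean difference -0.78 ± 0.16). This contrast, like the grouping by particle, was made after the values had been seen and has no test. Over the 7 Sf3 genes the mean was -0.17 ± 0.11.

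The Snrp genes hold the Sm ring and the U1 and U2 proteins, and they went both ways, with a mean of -0.014 ± 0.076 and 7 of 13 positive. Most of the Sm ring lay near 0. Snrpd3, Snrpe, Snrpf and Snrpg had means from 0.050 to 0.12, each with arrays of both signs. Snrpb and Snrpd2 were slightly negative on every array, with means of -0.20 ± 0.079 and -0.25 ± 0.081 and intervals that crossed 0.

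A single Sm gene stood out on the positive side. Snrpd1 had 1.14, 1.14 and 0.57, a mean of 0.95 ± 0.32 or a 1.93-fold difference (95% interval 0.44 to 1.46, limma adjusted p = 0.147), and it was the highest of the 66 members. Its partner in the ring, Snrpd2, lay below it on each array, by 1.48, 1.34 and 0.79. The proteins made from these genes sit side by side in 1 ring in equal number. The transcripts of the pair lay apart by a mean of 1.20 ± 0.37, a difference picked after the values were seen and not tested.

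Snrpn, an imprinted gene that encodes SmN, a stand-in for SmB abundant in brain, had a mean of -0.55 ± 0.10 (-0.66, -0.51 and -0.46, limma adjusted p = 0.207). That mean joins 2 oligos that disagreed. Oligo 2 had -1.11, -0.94 and -1.24 (mean -1.10 ± 0.15) and oligo 1 had -0.21, -0.085 and 0.31 (mean 0.0049 ± 0.27). Neural markers leaned to the same side, with 7 of 11 negative and array means of -0.32, -0.44 and -0.19, and their part in the Snrpn value was not tested. Snrpn and Snrpb code for closely similar proteins, and the oligo sequences were not used here, so cross-hybridisation between them was not examined.

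Among proteins particular to U1 and U2, Snrpb2, a U2 protein, was positive on all arrays at 0.99, 0.57 and 0.56 (mean 0.71 ± 0.25, a 1.63-fold difference, limma adjusted p = 0.184). Its partner on U2, Snrpa1, was slightly negative throughout, at -0.065, -0.11 and -0.30. Snrpa, a U1 protein related to Snrpb2, was positive at 0.84, 0.47 and 0.26 (mean 0.52 ± 0.29, limma adjusted p = 0.275). Snrpc, a zinc-finger U1 protein, had -1.21 and -1.66 on arrays 1 and 2 but 0.24 on array 3, and with an interval of -1.98 to 0.23 its side could not be placed. The pseudogene Snrp1c-ps2, had -1.20, 0.089 and -1.05, and sharing of signal between it and Snrpc was not examined.

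The Lsm family mixes the U6 ring with other Lsm proteins, and its mean was 0.017 ± 0.12. Of the 6 measured genes of the U6 ring, Lsm8, the subunit that sets the nuclear ring apart from the cytoplasmic one, was the highest at 0.69, 0.44 and 0.23 (mean 0.45 ± 0.23, limma adjusted p = 0.295). Lsm3 and Lsm7 were also positive on all arrays, at means of 0.33 ± 0.21 and 0.23 ± 0.13, with intervals that crossed 0. Lsm2 at 0.094 ± 0.041, Lsm6 at -0.0017 ± 0.072 and Lsm4 at -0.17 ± 0.19 lay close to 0.

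Lsm1, which replaces Lsm8 in the cytoplasmic ring that promotes mRNA decay, was negative throughout at -0.14, -0.23 and -0.45, with an interval of -0.69 to 0.14. Lsm11 belongs to the U7 snRNP, which trims the 3' ends of histone mRNAs, and was the lowest of the family at -0.41, -0.46 and -0.76 (mean -0.54 ± 0.19, 95% interval -0.97 to -0.11, limma adjusted p = 0.228). The 2 oligos of Lsm12 lay on opposite sides, at means of -0.21 and 0.26, and their average was 0.029 ± 0.18.

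The Srsf genes, which encode SR proteins that recruit the spliceosome to exons, lay near 0. Their mean was 0.025 ± 0.050, and 0 of 9 had an unadjusted p under 0.05, which 16.8% of all features met. Srsf4 was the highest at 0.38, 0.49 and -0.076 (mean 0.26 ± 0.30). Srsf6 was the lowest, and tightly so, at -0.25, -0.30 and -0.29 (mean -0.28 ± 0.027), with a 95% interval of -0.66 to 0.10 once limma had drawn its variance toward that of all features. The remaining 7 had means between -0.18 (Srsf5) and 0.18 (Srsf11), and Srsf3, Srsf9 and Srsf10 had arrays of both signs. Srsf1, the founding SR protein, averaged 0.15 ± 0.082, but its 3 oligos gave -0.30 ± 0.41, 0.77 ± 0.17 and -0.014 ± 0.15. The second of these was positive on every array at 0.93, 0.59 and 0.79. Srsf2 was alike on both of its oligos, at 0.16 ± 0.13 and 0.051 ± 0.11.

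**Figure D3:**
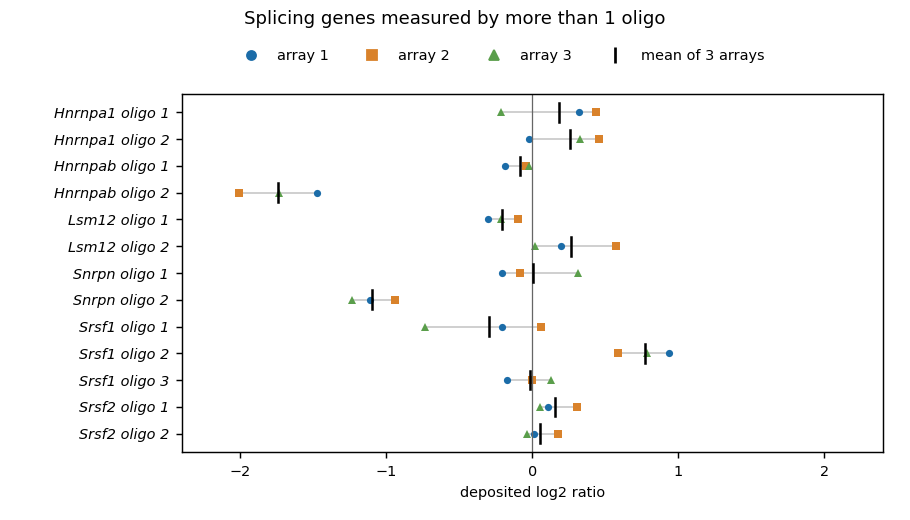
Deposited log2 ratio (horizontal axis) of each oligo (rows) for the 6 splicing genes measured by more than 1, with a symbol for each array and a black bar for the mean. The 2 oligos of Hnrnpab, of Snrpn and of Lsm12, and oligo 2 of Srsf1 against the others of that gene, do not overlap, while those of Hnrnpa1 and Srsf2 do.

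Genes of the hnRNP proteins, which coat nascent transcripts and often oppose SR proteins, were spread on both sides, with a mean of -0.18 ± 0.079 and 9 of 16 negative. On the negative side, Hnrnpk, a poly(C)-binding protein, was the most even, at -0.62, -0.62 and -0.55 (mean -0.60 ± 0.043, a 1.51-fold difference, limma adjusted p = 0.182). Hnrnpu, which binds the nuclear scaffold, had -1.24, -0.48 and -0.42, so that array 1 stood apart (mean -0.71 ± 0.46, limma adjusted p = 0.251). Hnrnpab had -0.83, -1.03 and -0.88 (mean -0.91 ± 0.10, limma adjusted p = 0.117), but that mean came from oligos that disagreed. Oligo 2 had -1.48, -2.01 and -1.74 while oligo 1 had -0.19, -0.041 and -0.020. The gap between them was -1.66 ± 0.34.

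On the positive side, Hnrnpc, which binds uridine tracts, had 0.65, 0.59 and 0.28 (mean 0.51 ± 0.20, a 1.42-fold difference, limma adjusted p = 0.249). Hnrnph1, which binds G-rich tracts, had 0.70, 0.49 and 0.26 (mean 0.48 ± 0.22, limma adjusted p = 0.273). Its paralogue Hnrnph2 was positive on all arrays at a lower mean of 0.19 ± 0.15. Among the abundant A-type proteins, Hnrnpa1 stood at 0.22 ± 0.20 and Hnrnpa2b1 at -0.31 ± 0.23, both with intervals that crossed 0.

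Hnrnpa0 was the most scattered member, at -0.85, 0.14 and -2.02, and its interval ran from -2.10 to 0.27. Hnrnpll and Hnrnpl, related regulators of CD45 exon choice in lymphocytes, stood at -0.38 ± 0.37 and -0.27 ± 0.20. Of the others, Hnrnpul2 was at -0.36 ± 0.53 and Hnrnpm at -0.20 ± 0.24, while Hnrnpr, Hnrnpdl and Hnrnpd lay between 0.045 and 0.19. Hnrnpr had the smallest spread of any member, at 0.048, 0.036 and 0.051.

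The 2 subunits of U2af, which read the polypyrimidine tract and the AG at the intron's end, were indistinguishable from 0. U2af1, the small subunit, had 0.36, 0.26 and -0.29 and U2af2, the large one, 0.091, 0.010 and -0.47. For both genes array 3 was negative and the other arrays were above 0. The intervals were -0.41 to 0.64 and -0.62 to 0.37, and each bounds the mean within 1 log2 unit of 0.

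Other genes of the splicing pathway, outside the 7 families, were described in 6 lists holding 143 measured genes. Taken as 1 group they had a median of -0.032, and 35 had an unadjusted p under 0.05, 22 on the negative and 13 on the positive side, with 0 past the adjusted test. Over all features these shares were 16.8% in all, 7.83% negative and 8.99% positive. Among 25 other snRNP proteins, 4 were negative and 2 positive at an unadjusted p under 0.05 (7.83% and 8.99% of all features). Sart1, which helps to recruit the tri-snRNP, had -1.37, -1.19 and -2.18 (mean -1.58 ± 0.53, limma adjusted p = 0.114), and Snrnp70, the U1-70K protein, had -1.19, -1.04 and -1.64 (mean -1.29 ± 0.31, limma adjusted p = 0.109). Snrnp27 of the tri-snRNP stood on the other side at 0.56 ± 0.078.

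In the Prp19 and catalytic list, 5 of 34 genes were negative and 2 positive at the same threshold (7.83% and 8.99% of all features). Snw1, which remains with the catalytic spliceosome, stood at -0.99 ± 0.18 and Ctnnbl1, which binds the Prp19-associated protein Cdc5l, at -0.67 ± 0.27, against 0.53 ± 0.12 for Wbp4. The list's median of -0.0080 was near 0.

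Genes that assemble snRNPs held some of the larger values. The Sm proteins are methylated by Prmt5 with its partners Wdr77 and Clns1a and then loaded onto snRNA by the SMN complex. Of 12 genes in this list, 5 were negative and 1 positive at an unadjusted p under 0.05 (7.83% and 8.99% of all features), and the median was -0.27. Prmt5 had -1.78, -0.98 and -1.23 (mean -1.33 ± 0.41, a 2.51-fold difference, limma adjusted p = 0.117). Wdr77 had -1.47, -0.92 and -1.86 (mean -1.42 ± 0.47, limma adjusted p = 0.120) and Clns1a had -0.67, -1.58 and -0.85 (mean -1.04 ± 0.48, limma adjusted p = 0.171). All 3 genes of this methylating complex were negative on all 3 arrays. Smn1, the SMN protein gene itself, lay on the other side, at 0.62 ± 0.20.

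Of the exon junction and export genes, 2 of 13 were negative at an unadjusted p under 0.05 and 0 positive (7.83% and 8.99% of all features). As a share of both sides this was no higher than the 16.8% of all features. The median was -0.22, and 10 of the 13 had a negative mean. Ddx39b, the helicase UAP56 that serves U2 loading and export, stood at -0.90 ± 0.11, Alyref at -0.40 ± 0.093 and Thoc3 at -0.37 ± 0.10. The 22 SR-related proteins and SR kinases had a median of 0.088, and 15 had a positive mean. At an unadjusted p under 0.05 there were 3 positive and 1 negative, again near the 16.8% of all features. U2surp stood at 1.02 ± 0.30, and Rbm5 and Rbm39, related RNA-binding proteins, at 0.75 ± 0.10 and 0.69 ± 0.066.

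Further regulators of alternative splicing, many of them restricted to certain tissues, had 5 of 37 genes on each side at an unadjusted p under 0.05 (7.83% of all features negative and 8.99% positive). Rbfox1, known for its role in neurons and muscle, was the highest splicing gene of all, with 2.15, 1.57 and 1.76 (mean 1.83 ± 0.30, limma adjusted p = 0.107). Mbnl2, of the muscleblind family, stood at 1.03 ± 0.20 and Taf15, an RNA-binding protein, at -1.25 ± 0.27. Of the somite and muscle markers 9 of 9 were negative, with array means of -1.05, -0.91 and -0.60. Neural markers were mixed, with 7 of 11 negative and 4 positive. The part of these cell types in the Rbfox1 value was not tested. The proliferation markers measured beside these lists were centred near 0, at a mean of -0.096 ± 0.040 over 19 genes. They were mixed, with 9 positive and 10 negative, and ran from Mcm6 at -1.24 ± 0.28 to Mki67 at 0.78 ± 0.062.

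**Figure D4:**
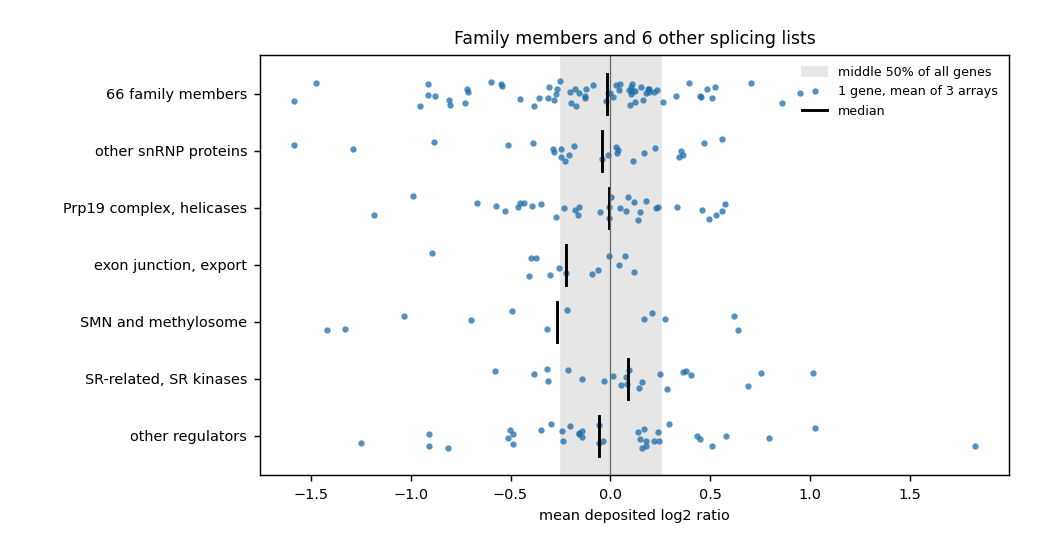
Mean deposited log2 ratio over the 3 arrays (horizontal axis) of each gene, for the 66 family members and the 6 other splicing lists (rows, jittered); black bars are medians and the grey band holds the middle 50% of all features. The medians of the lists run from -0.27 for the SMN and methylosome genes to 0.088 for SR-related genes and kinases.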

How the data were processed

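The authors deposited, for each array, the log2 ratio of its 2 channels; base 2 follows from the values themselves. Per the labels' protocols, images were read with Imagene 5.5, ratios were normalized by print-tip loess and between arrays, and a lowess curve fitted on 20.0% of the data corrected the control channel, which had a floor of 10. Such centring hides any shift common to most genes. Dye swaps are mentioned without saying which array, and no sign was turned, since all pairs of arrays correlated above 0. Spot intensities were not used here, so dim or saturated spots could not be examined, and the number of arrays limits precision.

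Of 22702 spots, 883 control spots were left out. Oligos of 1 symbol were averaged, others kept unnamed, and a value on all 3 arrays was required. A two-sided limma test (version 3.58.1, R 4.3.3; intercept-only lmFit, eBayes) set each mean against 0, p-values were Benjamini-Hochberg adjusted over 19635 features, and the procedure was checked on simulated data. An exact sign-flip test of 3 arrays cannot go below p = 0.25. Errors are SDs over arrays, and intervals come from limma's moderated variance. In each family, array values are given for up to 6 members with the smallest unadjusted p under 0.05 and for the highest and lowest mean, and the 3 smallest p name each other list. Further members were named after their values were seen. The members and lists were chosen with earlier results of these data known. Alternatives left out each array or changed the array requirement, oligo averaging, centring, scale, floor values, array weights and variance prior.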

Additional observations from a re-analysis of the deposited data

How the results depend on the processing

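The count of splicing genes at an unadjusted limma p under 0.05 depended on the arrays used: it was 18 with all 3 and ran from 6 (without replicate 1) to 18 (without replicate 3) with 1 left out, with 9 without replicate 2. The other alternatives gave 17 to 22, including 18 without the pseudogene, an alternative chosen after seeing the data. The 1 feature past limma's adjusted test over all features was lost, leaving 0, without any 1 array, with arrays centred and scaled to one spread, and with floor values left out. At an unadjusted p under 0.05 these fits called 1686 to 3929 features. The smallest limma adjusted p of a member of the 7 families in any fit was 0.0790, with array weights. The other splicing lists were not followed across the fits. Of the 218 values computed for 24 named genes under the alternatives, 215 kept their sign and 3 did not: U2af1 ran from -0.013 without replicate 1 to 0.31 without replicate 3, U2af2 from -0.23 without replicate 1 to 0.050 without replicate 3, and oligo 1 of Snrpn alone was 0.0049. Many of the 218 could not differ from the main fit. Leaving out floor values or asking for only 2 arrays changed no value of a named gene. Taking each oligo on its own changed none for genes with 1 oligo. With 1 array left out, the family means ran from -0.049 to 0.027 for Snrp, -0.0017 to 0.048 for Srsf, -0.023 to 0.083 for Lsm and -0.12 to 0.18 for U2af, so the sign of these 4 means depended on the arrays used. Family means were not computed with array weights or the robust variance prior. No paired analysis was possible because the arrays form 1 group. With 3 arrays, the median distance from a member's mean to either end of its 95% interval was 0.45, so differences smaller than this were often not detectable.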
